A study of Homo sapiens with 8 samples.

Results

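Bone morphogenetic proteins (BMPs) are secreted dimers that bind paired type I and type II receptor kinases, which phosphorylate SMAD1, SMAD5 and SMAD9. These pair with SMAD4, enter the nucleus and switch on targets such as the ID and MSX genes. The pathway is held in check at several levels, by secreted proteins that trap the ligand, by a receptor without kinase activity and by inhibitory SMADs, and several of these brakes are themselves induced by BMP signalling. In human pluripotent stem cells BMP signalling is known for driving differentiation towards mesoderm, amnion and surface ectoderm.

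The genes described here are 8 parts of this system: the ligand genes BMP2, BMP4 and BMP7, the genes of the secreted antagonists noggin (NOG) and gremlin 1 (GREM1), the pseudoreceptor gene BAMBI, and the inhibitory SMAD genes SMAD6 and SMAD7. They were taken by name, and for each the probe set with the highest mean log2 signal over all arrays was used among those annotated to that symbol alone; all 8 were found, out of 19775 genes on the array that could be named in this way. They are read by 16 probe sets in all, of which 14 were bright enough to be tested, and the other probe sets serve as a check.

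The study measured total RNA of H1 and H9, established human embryonic stem cell lines, on Affymetrix Human Genome U133 Plus 2.0 arrays, with 8 arrays in 4 groups of 2 samples. Undifferentiated H1 and H9 were grown in mTeSR1, a defined maintenance medium. H1 and H9 embryoid bodies (EB), which are cell aggregates in suspension, were kept for 3 days on ultra low attachment plates in hESGM lacking bFGF, with 10 µM Y-27632, an inhibitor of the kinase ROCK. State therefore differs together with medium, attachment and, as far as the labels tell, this compound; the labels name no BMP and no BMP inhibitor. They call the paired arrays biological replicates without saying which cultures they came from, so p-values measure the spread between these samples only. In RNA from whole cultures, more cells that express a gene and more RNA per cell cannot be told apart.

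The arrays labelled H9 EB stood apart. Of the genes clear in H1 and dim in undifferentiated H9, where dim means below the array's median intensity, 5 autosomal or X-linked genes met limits that were set after the pattern was seen, and on the arrays labelled H9 EB they stood 18.4% to 31.6% of the way from the undifferentiated H9 level to the H1 EB level, with a median of 25.05%. CRYZ, for example, read 40.1 in undifferentiated H9, 4334 in H1 EB and 1395 on these arrays. Whether these samples held H1 material was not tested, and it bears on every H9 EB value and line comparison below. The estimate of the H1 change does not use these arrays, while its SE and adjusted p draw on the spread of all 8 arrays. It is given beside the changes of the 8 genes and of the named pathway genes. Median intensities of the arrays ran from 68.7 to 86.0 and arrays of 1 group correlated at 0.991 to 0.992 across genes.

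Markers, listed with earlier results of these data known, were compared with the labelled states. The listed pluripotency markers POU5F1 and TDGF1 had no probe set annotated to that symbol alone and were left out. In EB all 8 tested pluripotency markers fell in the mean of the lines and in H1. In H9 only 4 of these 8 were called lower, where 4074 of all 14056 tested genes were. The EB effect differed between the lines for 5 of 8, where 22.7% of all genes were called. The 8 markers had a summed intensity of 104047 to 114254 on undifferentiated arrays and 72408 to 86300 on EB arrays, so these transcripts were still abundant. Markers of several other cell types moved with EB, with the same counts of rising genes in H1 alone. Over all tested genes 35.4% were called higher and 33.1% lower in the mean of the lines. Of 9 endoderm genes 9 rose (summed intensity 1032 to 1411 before, 44704 to 67952 in EB). Of 9 neural crest and neuroectoderm genes 8 rose and 1 fell (4393 to 5550, then 21943 to 22951). Of 8 amnion and trophoblast genes 5 rose and 2 fell (2101 to 2426, then 6836 to 7116). Of 6 mesoderm genes 4 rose and 1 fell (2877 to 3881, then 5545 to 6657). The sums also include listed genes too dim to be tested. The trophoblast gene CDX2 was dim on all 8 arrays. Of the blood markers, PTPRC and CD14 were dim on all 8, and 2 of 3 tested rose at low intensity (128 to 154, then 188 to 485 for the sum). Listed genes dim on all undifferentiated arrays could be tested only through EB arrays, so their rise is no separate support. These were 1 endoderm gene, 2 amnion and trophoblast genes (CDX2 among them), 2 mesoderm genes and 4 blood genes (PTPRC and CD14 among them). The part of these cell types in the changes below was not tested.

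All 8 genes rose in EB, in H1 as well as on the arrays labelled H9. Averaged over the lines their median change was 2.39 on the log2 scale, against 0.010 over all 14056 genes tested. In this comparison 68.5% of all genes were called, 35.4% higher and 33.1% lower. The rise was called for all 8 also within H1, where 57.7% of all genes were called and 29.6% were higher, and within H9, where 60.6% were called and 31.6% were higher. For every one of the 8, all 4 EB arrays lay above all 4 undifferentiated arrays, which held for 27.1% of all genes. The 8 genes were chosen with earlier results of these data known, so the shares over all genes stand beside them as description only. Changes are limma estimates from log2(intensity + 16), given with their standard error (SE); a call is a Benjamini-Hochberg adjusted p under 0.05 over all tested genes. None of the 8 was tested only because of its EB signal, since each was above the array median on at least 2 undifferentiated arrays. The median intensity at which a gene is called dim is a relative mark, and NOG was above it on only 2 of the 4 undifferentiated arrays and BMP4 on 3.

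**Figure D1:**
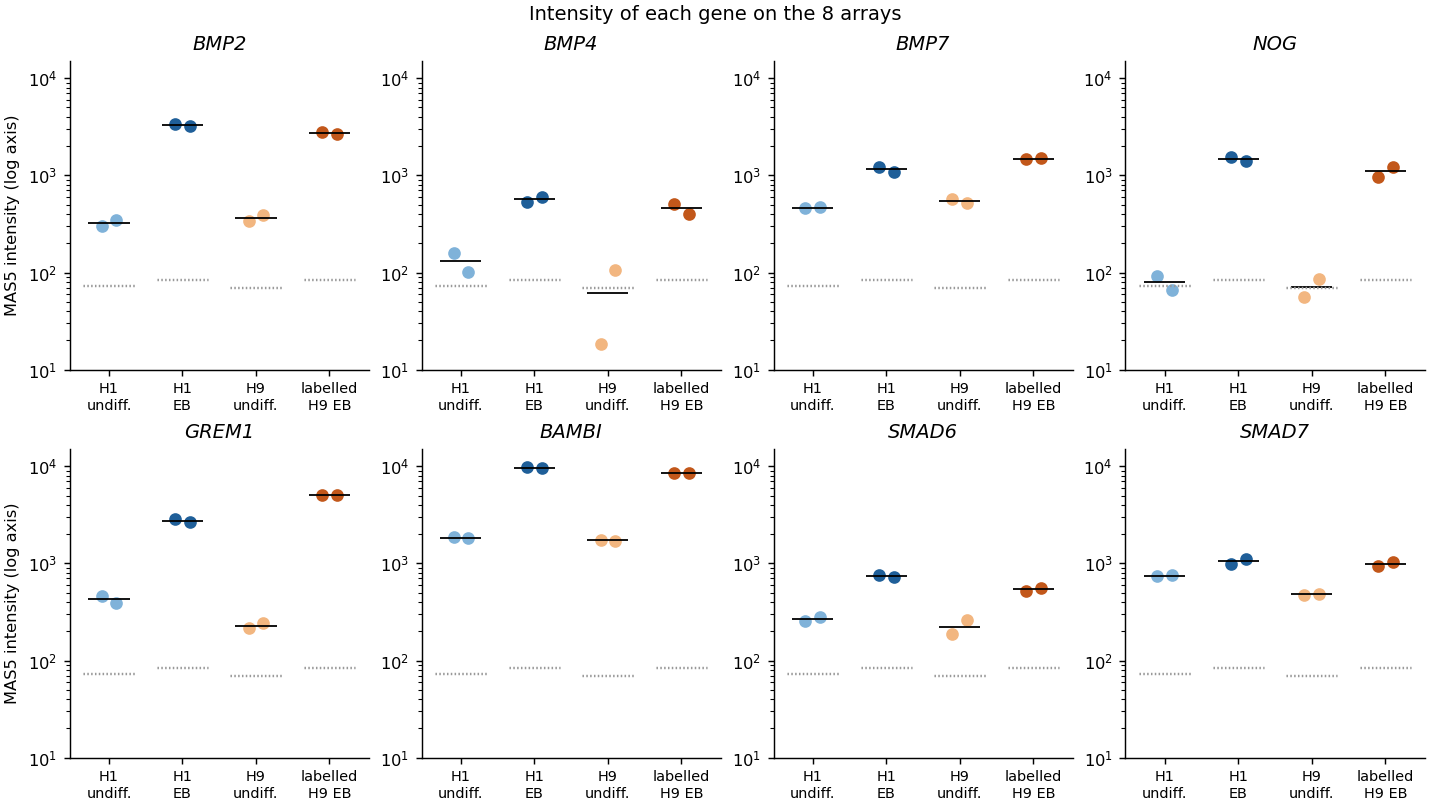
MAS5 intensity (log axis) of each of the 8 genes, with 1 point per array, 2 arrays per group, black lines for group means and dotted grey lines for the median intensity of each array. EB points lie above undifferentiated points in every panel, from the narrow gap of SMAD7 (lowest EB array 1.23 times the highest undifferentiated array) to the wide gap of NOG (10.4 times).

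Of the ligands, BMP2 (chromosome 20, 6767686 to 6780246, GRCh38.p14) had the largest mean change. Its intensity was 304 and 345 in undifferentiated H1, 3370 and 3230 in H1 EB, 338 and 387 in undifferentiated H9, and 2810 and 2660 on the arrays labelled H9 EB. Both lines thus started at a like level, and the EB arrays stood far above with little spread between replicates. The change was 3.08 ± 0.065 averaged over the lines (8.44-fold on the log2(intensity + 16) scale, limma adjusted p = 1.74e-11) and 3.29 ± 0.092 in H1 alone (adjusted p = 4.13e-10). BMP2, a ligand of the type I receptors BMPR1A and BMPR1B, has a second probe set, which gave 3.55 ± 0.088.

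BMP4 (chromosome 14, 53949736 to 53956891), which encodes the ligand closest to BMP2 and widely used to differentiate these cells, was the least precisely measured of the 8. Its single usable probe set read 160 and 101 in undifferentiated H1, 530 and 600 in H1 EB, 18.3 and 106 in undifferentiated H9, and 512 and 400 on the arrays labelled H9 EB. The value of 18.3 is far below every other one, while all EB arrays were at 400 or more. The change was 2.44 ± 0.35 averaged over the lines (adjusted p = 0.000303) and 2.02 ± 0.50 in H1 alone (adjusted p = 0.00832). In H9 it was 2.86 ± 0.50, and 1.94 without the low array.

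BMP7 (chromosome 20, 57168753 to 57266641), a ligand that prefers other type I receptors than BMP2 and BMP4 do, rose less. The main probe set read 459 and 471 in undifferentiated H1, 1220 and 1090 in H1 EB, 574 and 525 in undifferentiated H9, and 1460 and 1510 on the arrays labelled H9 EB. The change was 1.35 ± 0.063 averaged over the lines (adjusted p = 8.97e-09) and 1.28 ± 0.089 in H1 alone. Its 4 probe sets gave different sizes of change, with the wider spread in H1. In H1 they gave 1.28, 0.91, 0.34 and -0.25, the last 2 not called (limma adjusted p = 0.0886 and 0.343), and in H9 1.41, 1.42, 1.33 and 0.54. The 2 dimmest of them read 69.8 to 307 on all arrays. With the mean of all 4 probe sets the change was 0.87 averaged over the lines and 0.57 in H1, both still called.

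Averaged over the lines, the secreted antagonists had the largest changes of the 8, while in H1 alone GREM1 came after NOG and BMP2. NOG (chromosome 17, 56593699 to 56595611), whose protein noggin binds BMP dimers and covers their receptor sites, read 93.1 and 66.0 in undifferentiated H1, 1530 and 1410 in H1 EB, 55.7 and 85.0 in undifferentiated H9, and 966 and 1230 on the arrays labelled H9 EB. It went from about the array median to a clear signal in both lines. The change was 3.84 ± 0.14 averaged over the lines (adjusted p = 1.90e-09) and 3.97 ± 0.20 in H1 alone. Since starting values near the array median enter these figures, their size depends on the added value, and the mean change ran from 3.27 to 4.09 over 16 alternatives.

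GREM1 (chromosome 15, 32718004 to 32745106), encoding a cystine-knot antagonist of BMP2, BMP4 and BMP7, read 466 and 388 in undifferentiated H1, 2850 and 2680 in H1 EB, 215 and 242 in undifferentiated H9, and 5110 and 5050 on the arrays labelled H9 EB. The order of the lines turned over: H9 was the lower line before and the higher one in EB, with no overlap in either state. The rise was 2.66 ± 0.096 in H1 (6.31-fold, adjusted p = 2.82e-09) and 4.38 ± 0.096 in H9 (20.8-fold, adjusted p = 5.58e-11), or 3.52 ± 0.068 on average. A second probe set gave 2.97 in H1 and 5.22 in H9.

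The inhibitors at the membrane and inside the cell rose by smaller amounts. BAMBI (chromosome 10, 28677521 to 28682932), a receptor-like protein that lacks the kinase and blocks receptor pairing, read 1850 and 1830 in undifferentiated H1, 9730 and 9550 in H1 EB, 1750 and 1700 in undifferentiated H9, and 8620 and 8430 on the arrays labelled H9 EB. Replicates nearly coincided, and EB arrays lay far above undifferentiated arrays in both lines. The change was 2.34 ± 0.036 averaged over the lines (5.05-fold, adjusted p = 1.72e-12), 2.38 ± 0.050 in H1 and 2.29 ± 0.050 in H9.

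SMAD6 (chromosome 15, 66702236 to 66782849), the inhibitory SMAD that acts mainly on BMP receptors, read 253 and 282 in undifferentiated H1, 766 and 728 in H1 EB, 187 and 259 in undifferentiated H9, and 518 and 565 on the arrays labelled H9 EB. The lowest EB array was 1.83 times the highest undifferentiated one. The change was 1.33 ± 0.10 averaged over the lines (adjusted p = 5.15e-07) and 1.43 ± 0.15 in H1 alone. This rests on 1 of its 4 probe sets. Of the others, 2 were dim on all 8 arrays and the third read between 12.3 and 95.3 with a change of 0.0091 ± 0.43; with the mean of all 4 the change was 0.12 (adjusted p = 0.459).

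SMAD7 (chromosome 18, 48919853 to 48950965), the inhibitory SMAD that acts on BMP and TGF-beta or activin receptors alike, had the smallest rise of the 8. It read 740 and 759 in undifferentiated H1, 993 and 1120 in H1 EB, 477 and 488 in undifferentiated H9, and 932 and 1030 on the arrays labelled H9 EB. Undifferentiated H9 was below undifferentiated H1, and the EB arrays of both lines overlapped. The change was 0.74 ± 0.065 averaged over the lines (1.67-fold, adjusted p = 1.42e-06), 0.49 ± 0.092 in H1 (adjusted p = 0.000866) and 1.00 ± 0.092 in H9 (adjusted p = 3.67e-06).

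**Figure D2:**
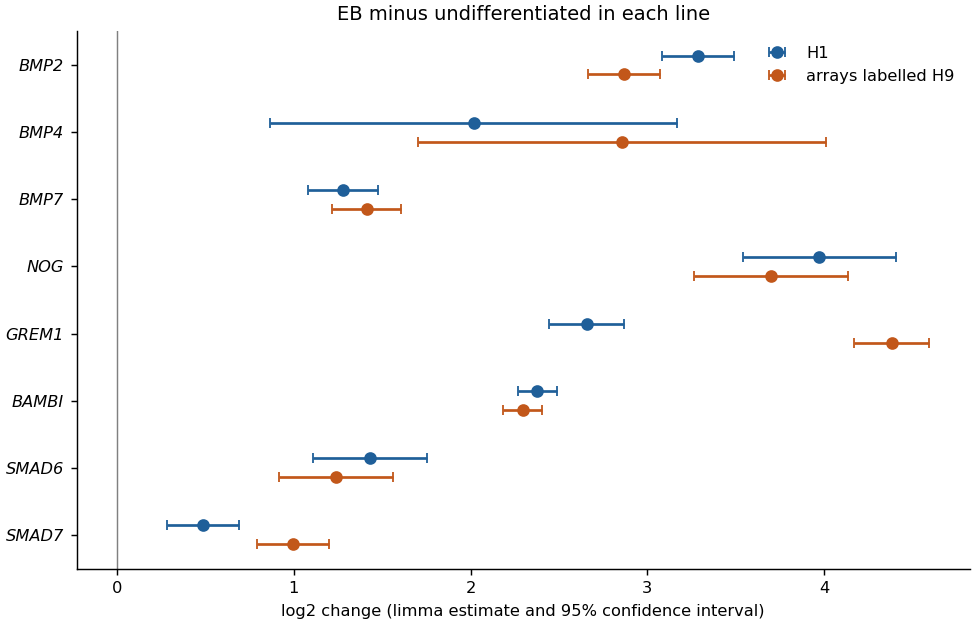
Log2 change from undifferentiated cells to EB for each gene (limma estimate with its 95% confidence interval), in H1 and on the arrays labelled H9, with 2 arrays per group. All 16 intervals lie above 0; those of GREM1 (2.66 against 4.38), SMAD7 (0.49 against 1.00) and BMP2 (3.29 against 2.87) do not meet between the lines.

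For those of the 8 genes in which a searched motif lay within the 250 bases before the gene's first base, these bases are shown. Sequences are from a set of promoter sequences of RefSeq genes (GRCh38.p14). The set at hand held 5 of the 8 genes with 10 start sites between them, and lacked BMP2, BMP7 and NOG. Each window is the 250 bases before a start. The motifs were GTCTAGAC, a palindrome bound by SMAD3 and SMAD4 in vitro, and GGCGCC, a GC-rich palindrome found in BMP-responsive elements. Both read the same on either strand and do not overlap each other. GTCTAGAC was in 0.182% of all 35116 such windows and in 1 of these 10, that of SMAD6, where it begins 12 bases before the start. GGCGCC was in 16.4% of all windows and in 3 of these 10, with 3 copies for BAMBI, 2 for GREM1 and 1 for a start of BMP4 that lies inside the gene. Capitals mark the motifs in the windows of SMAD6 (chr15:66701986-66702235, + strand), BAMBI (chr10:28677271-28677520, + strand) and GREM1 (chr15:32717754-32718003, + strand), written 5′ to 3′. The arrays measured no binding, so a match is a description of the letters only.
SMAD6: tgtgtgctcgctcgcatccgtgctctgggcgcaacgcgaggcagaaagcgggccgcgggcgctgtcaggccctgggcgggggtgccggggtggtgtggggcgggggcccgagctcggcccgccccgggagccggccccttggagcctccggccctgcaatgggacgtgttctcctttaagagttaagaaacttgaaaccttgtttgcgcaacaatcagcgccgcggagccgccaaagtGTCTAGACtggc
BAMBI: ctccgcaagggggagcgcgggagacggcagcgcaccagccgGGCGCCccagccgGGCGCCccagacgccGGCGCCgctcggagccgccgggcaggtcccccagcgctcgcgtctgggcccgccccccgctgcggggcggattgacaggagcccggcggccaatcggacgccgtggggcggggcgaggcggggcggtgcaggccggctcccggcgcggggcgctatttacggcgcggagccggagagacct
GREM1: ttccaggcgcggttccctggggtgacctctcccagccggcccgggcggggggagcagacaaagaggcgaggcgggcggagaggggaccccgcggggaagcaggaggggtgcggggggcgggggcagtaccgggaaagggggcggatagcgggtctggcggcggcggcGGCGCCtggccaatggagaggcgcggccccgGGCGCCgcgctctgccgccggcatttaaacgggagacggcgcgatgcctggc

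The lines were then compared for the size of the EB response. The difference of the EB effect, H9 minus H1, was called for 3 of the 8 genes, where 22.7% of all genes were called, 11.5% with the larger value in H9 and 11.2% in H1. For GREM1 it was 1.72 ± 0.14 (limma adjusted p = 3.14e-05), and 2.25 with the second probe set. For SMAD7 it was 0.51 ± 0.13 (adjusted p = 0.0176), and the call was lost without H1 EB replicate 1 (adjusted p = 0.0795), H9 EB replicate 2 (0.0741) or undifferentiated H1 replicate 2 (0.0502). For BMP2 it was -0.42 ± 0.13 (adjusted p = 0.0390), the rise being smaller in H9; this call was lost in 8 of 16 alternatives, with adjusted p from 0.0130 to 0.132, among them leaving out H1 EB replicate 1 (0.132) or 2 (0.0835), H9 EB replicate 1 (0.0789) or 2 (0.131), undifferentiated H1 replicate 1 (0.109) or undifferentiated H9 replicate 2 (0.0978). Each of these differences uses the arrays labelled H9 EB, with the signal of H1-type genes given above, and none can be had without them.

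For the other 5 genes the difference of the EB effect was not called, and the 95% confidence interval gives what these arrays leave possible. The interval was narrow for BAMBI (-0.24 to 0.073) and BMP7 (-0.14 to 0.41), wider for SMAD6 (-0.65 to 0.26) and NOG (-0.89 to 0.34), and too wide to be of use for BMP4 (-0.79 to 2.47). Without undifferentiated H9 replicate 2 the BMP4 difference was 1.76 (adjusted p = 0.00634), and without replicate 1, the array with the low value, it was -0.074 (adjusted p = 0.902). For BMP7 the probe sets disagreed, 1 of the dimmer ones giving 1.00 (adjusted p = 0.0115) where the main one gave 0.13 (adjusted p = 0.487), while averaging its 4 probe sets gave 0.60 (adjusted p = 0.0294).

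Before differentiation the lines differed in 2 of the 8 genes, both lower in H9. Over all genes 26.2% were called, 13.7% higher and 12.5% lower in H9. The estimated differences do not use the arrays labelled H9 EB, but their SEs and adjusted p draw on the spread of all 8 arrays. With the arrays labelled H9 EB left out, 3370 of all genes were called in place of 3686. GREM1 was lower in H9 by -0.85 ± 0.096 (limma adjusted p = 0.000119) and SMAD7 by -0.62 ± 0.092 (adjusted p = 0.000770). Both calls held in all 17 alternatives. Means were 427 ± 55.2 (SD, n = 2) in H1 and 229 ± 19.0 in H9 for GREM1, and 749 ± 13.4 and 483 ± 7.97 for SMAD7. BMP4 differed by -1.15 ± 0.50 (adjusted p = 0.133); this was -2.07 (adjusted p = 0.000709) without undifferentiated H9 replicate 2 and -0.23 without replicate 1.

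In EB the line difference was called for 3 of the 8 genes, against 15.3% of all genes (8% higher and 7.31% lower in H9). GREM1 was higher on the arrays labelled H9 EB by 0.87 ± 0.096 (limma adjusted p = 0.000346), BMP7 was higher by 0.37 ± 0.089 (adjusted p = 0.0199) and BAMBI was lower by -0.18 ± 0.050 (adjusted p = 0.0376). The call of GREM1 held in all 16 alternatives. That of BAMBI was lost in 6 of 16 alternatives, among them leaving out any 1 of the 4 EB arrays. That of BMP7 was lost in 4 of 16, among them leaving out H1 EB replicate 2, H9 EB replicate 1 or H9 EB replicate 2. Both were also lost with plain eBayes. The other BMP7 probe sets gave 0.38, 0.66 and 0.23 (limma adjusted p = 0.0682, 0.0213 and 0.521). SMAD6 was lower by -0.46 (adjusted p = 0.0588), which was called in 6 of 16 alternatives and turned to 0.12 with the mean of its probe sets. For SMAD7, which differed before, the EB difference was -0.11 with an interval from -0.31 to 0.094.

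**Figure D3:**
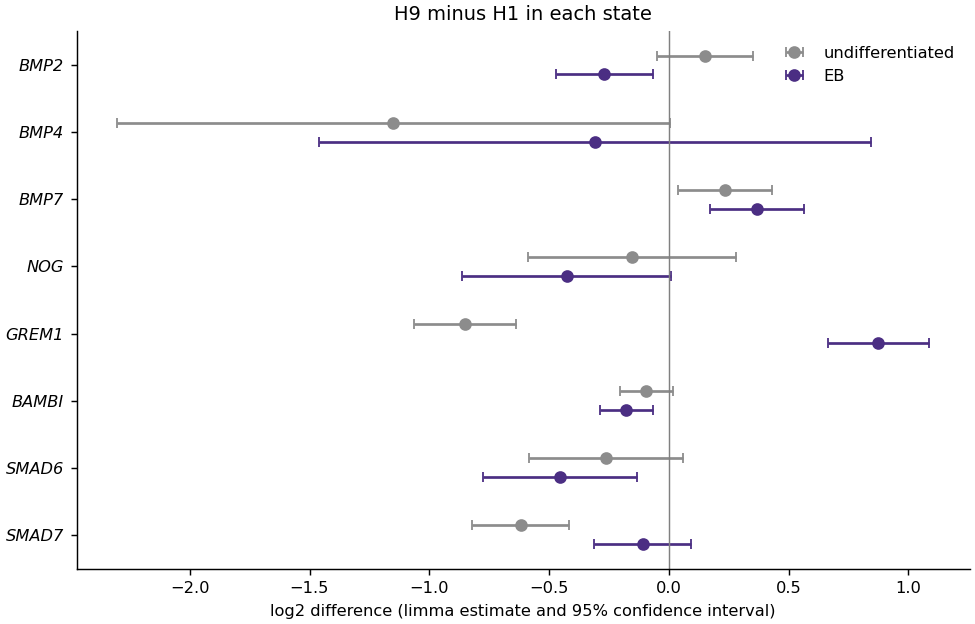
Log2 difference between the lines, H9 minus H1 (limma estimate with its 95% confidence interval), in undifferentiated cells and in EB for the 8 genes, with 2 arrays per group. GREM1 goes from -0.85 to 0.87, SMAD7 from -0.62 to -0.11, and the intervals of BMP4 are the widest.

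**Figure D4:**
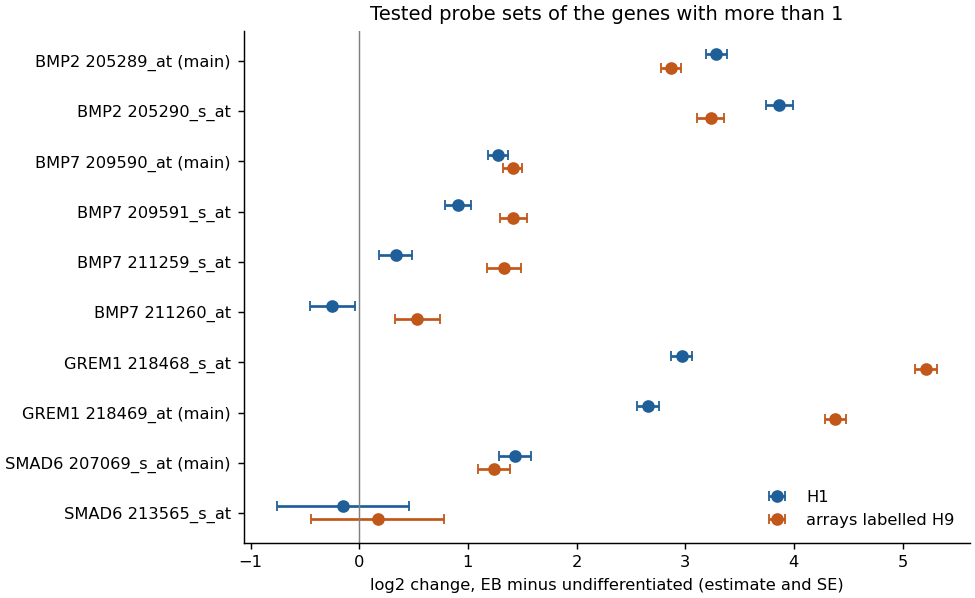
Log2 change from undifferentiated cells to EB (estimate and SE) for each tested probe set of the genes that have more than 1, in H1 and on the arrays labelled H9. Both GREM1 probe sets show the larger rise in H9, the BMP7 probe sets spread in H1 from 1.28 down to -0.25, and the second tested SMAD6 probe set has wide errors around 0.

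The rest of the pathway was read from a list of 59 genes in 7 roles, also chosen with earlier results of these data known. Of these, 3 had no probe set of their own, 9 were too dim to be tested, and 47 were tested. Of the 47, 30 rose, 4 fell and 13 were not called in the mean of the lines, with a median change of 0.58. Over all tested genes 35.4% were called higher and 33.1% lower in this contrast, and 29.6% and 28.1% in H1. In H9 4441 of all 14056 tested genes were called higher and 4074 lower. The counts by role below are to be read beside these shares. Genes bright in 1 state only could enter through that state. Without the arrays labelled H9 EB, 32 rose and 5 fell in H1, an alternative chosen after the data were seen. With arrays centred on their medians, 28 rose and 12 fell, relative to a shift of the typical gene from 0.010 to -0.19; none of the called genes changed sign, while FURIN (0.32, adjusted p = 0.0940) and SMAD4 (0.083, adjusted p = 0.139) lost their call.

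Upstream of the SMADs, most of the tested genes of other ligands and of receptors rose. Only 5 of the 9 other ligand genes with a probe set were bright enough to be tested. Of 5 tested other ligand genes 3 rose: BMP5 by 2.94 ± 0.10 (from 83.4 and 108 to 675 and 663 in H1), GDF7 by 2.42 ± 0.19 and BMP6 by 1.85 ± 0.088, in H1 by 2.62, 0.80 and 2.34. BMP5 and GDF7 were above the array median on 2 undifferentiated arrays only, and GDF7 rose by 4.04 in H9. BMP8B was called lower in H9 (-0.79, limma adjusted p = 0.0146) and was not called in H1 (0.38) or in the mean (-0.21). Of 8 receptor and coreceptor genes 5 rose and 1 fell. The type I receptor gene BMPR1B rose by 2.52 ± 0.13 and in H1 by 2.45, from 74.3 and 53.2 to 409 and 425 in H1, and exceeded the array median on only 1 undifferentiated array. The coreceptor gene RGMB rose by 1.71 ± 0.068 and the type II receptor gene BMPR2 by 1.58 ± 0.12, in H1 by 1.15 and 1.16.

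Among the SMADs that carry the signal, SMAD9 stood out. It read 168 and 162 in undifferentiated H1, 2160 and 1990 in H1 EB, 140 and 131 in undifferentiated H9, and 1320 and 1340 on the arrays labelled H9 EB, a change of 3.34 ± 0.069 (limma adjusted p = 1.56e-11) and of 3.53 in H1. SMAD5 rose by 0.39 ± 0.061, in H1 by 0.43. SMAD4, the shared partner, had a mean change of 0.28 ± 0.043, made up of 0.60 in H1 and -0.036 in H9. SMAD1 was not called in the mean of the lines (0.045), but was called higher in H1 (0.25, adjusted p = 0.0118) beside -0.16 in H9 (adjusted p = 0.0780), so that all 4 of these genes rose in H1 and 2 of 4 in H9.

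Other secreted antagonists resembled NOG and GREM1 in direction. Of 10 tested 7 rose and 1 fell. CHRD and BMPER, both among the 7, were dim on all undifferentiated arrays and so were tested only through EB arrays. FST, encoding follistatin, which binds activins and more weakly BMPs, rose by 3.38 ± 0.039, by 3.38 in H1 and 3.38 in H9, from 1000 on both arrays to 10600 on both in H1. SOST, the sclerostin gene, also known as a WNT antagonist, rose by 2.96 ± 0.13, by 1.82 in H1 and by 4.11 in H9, and was above the array median on 2 undifferentiated arrays. BMPER, encoding an extracellular BMP regulator, was dim on the 4 undifferentiated arrays; in H1 the fitted change was 3.15, and its mean EB signal was at least 3.64-fold higher than their medians.

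The other inhibitors inside the cell did not share the rise of SMAD6 and SMAD7 in the mean of the lines. Of 6 other intracellular inhibitors none rose and 2 fell in this mean. In H1 1 rose and 2 fell, and in H9 none rose and 3 fell. The 2 of 6 that fell in the mean are near the 33.1% of all tested genes called lower. SKIL, a SMAD corepressor, changed by -0.49 ± 0.039 (limma adjusted p = 7.67e-07; -0.47 in H1) and PPM1A, a phosphatase of SMADs, by -0.35 ± 0.045 (adjusted p = 2.96e-05; -0.17 in H1, adjusted p = 0.0346). TOB1, an antiproliferative gene, moved in opposite directions, by 0.47 in H1 (adjusted p = 0.0108) and by -0.43 in H9 (adjusted p = 0.0163), with a called difference of the EB effect (-0.90, adjusted p = 0.00768). The others were called in neither line: SMURF1, a ubiquitin ligase for SMADs, at 0.17 ± 0.071 (adjusted p = 0.0513), its relative SMURF2 at -0.039 ± 0.045 and the corepressor SKI at -0.033 ± 0.065 in the mean, and at 0.23, 0.0095 and 0.013 in H1. With arrays centred on their medians SMURF2 (-0.24) and SKI (-0.23) were called lower as well. Of 4 tested protease genes 3 rose in the mean of the lines, by 0.97 ± 0.18 for BMP1, which cleaves the antagonist chordin, 0.68 ± 0.057 for PCSK5 and 0.52 ± 0.17 for FURIN, both convertases of the kind that mature BMP precursors. In H1 these changes were 0.94, 0.46 and 0.58; FURIN was called in neither line (adjusted p = 0.0610 in H1 and 0.121 in H9), and TLL2 was called lower in H1 (-0.47, adjusted p = 0.0381).

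Of 10 target transcription factor genes 9 rose and GATA2 was not called, in the mean and in H1, with a median mean change of 1.85. The largest were GATA3 (3.84 ± 0.097, from 102 and 121 to 2110 and 2160 in H1), MSX2 (3.79 ± 0.086) and MSX1 (3.72 ± 0.10), with H1 changes of 4.08, 3.55 and 3.12. The MSX2 probe set is of a type that can cross-hybridise, and GATA3 is also a marker of amnion and trophoblast. The 4 ID genes, direct targets of BMP SMADs, were all among those that rose. DLX3 and DLX5, also counted among the 9, were dim on all 4 undifferentiated arrays and so were tested only through EB arrays. DLX3 was dim on both H1 EB arrays as well (60.8 and 36.8). It entered only through the arrays labelled H9 EB, so its call in H1 rests on dim values.

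**Figure D5:**
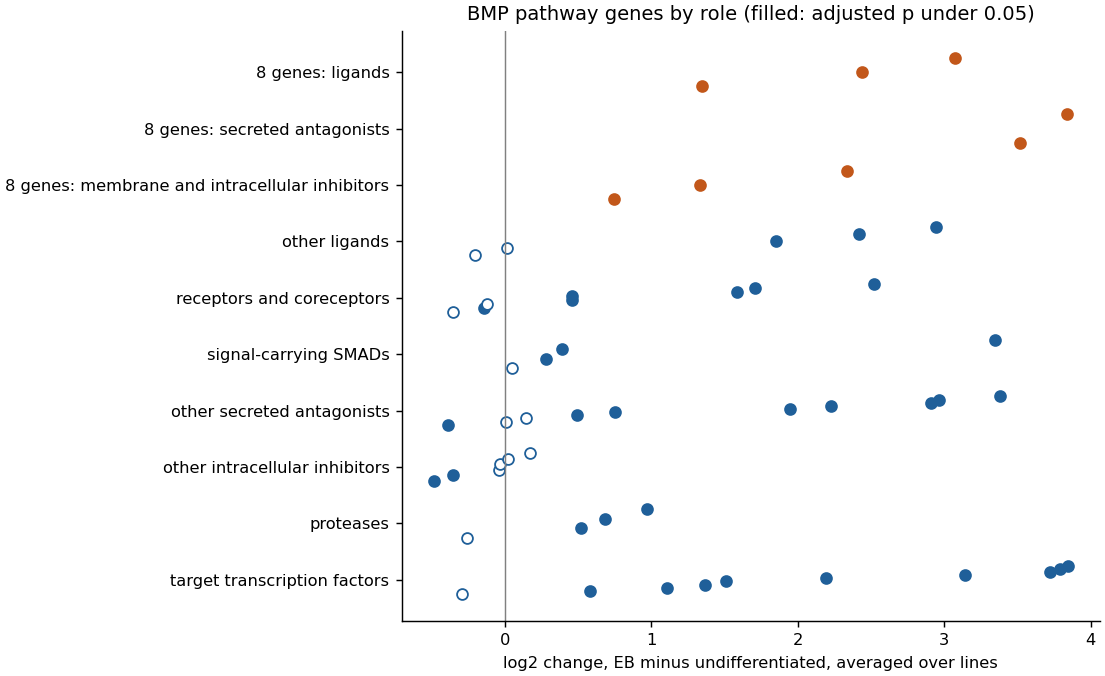
Log2 change from undifferentiated cells to EB, averaged over the lines, for the 8 genes (orange) and 47 other tested pathway genes (blue) by role, 1 point per gene, filled where the adjusted p was under 0.05. The 2 secreted antagonists at 3.84 and 3.52 lie near the top of the scale with 3 of the 10 target genes (GATA3, MSX2 and MSX1), while the other intracellular inhibitors lie near 0 or below.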

How the data were processed

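Each array's deposited table gives linear intensities of its probe sets. The submitters' processing notes name MAS5 for them, without a version. With 2% trimmed from both ends every array averaged 500.1, which is how MAS5 scales arrays to one target. MAS5 subtracts mismatch signal, which makes low values noisy, and detection calls were not used here.

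Of 54675 probe sets, 62 controls, 1801 with several symbols and 11721 unnamed ones were left out, and 41091 with 1 symbol were kept; gene IDs of 41037 matched the reference gene table. A gene's probe set was the one brightest on average as log2(intensity + 16), and the gene was tested when above the array median on at least 2 arrays (14056 of 19775 genes). A fit of 4 group means to all 8 arrays (4 residual degrees of freedom) was made in limma 3.58.1 (R 4.3.3), with eBayes set to trend and robust and Benjamini-Hochberg adjustment over all tested genes. The fit was tested on simulated data. For genes dim on every array of one state, the mean of log2 intensities in the other state was set against the higher of each array's median and the gene's own value.

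The genes, the pathway and marker lists and the alternatives were chosen with earlier results of these data known. Named are the 8 genes, the 3 called pathway genes with the largest mean change per role (all tested ones where fewer than 3 were called), and for each of the 8 the 2 most alike genes. Some other pathway genes are named where a count depends on them. The limits for the line genes were an H1 change under 0.5, a line difference of at least 2 (both log2) and an undifferentiated H1 signal over 2 times the mean array median; chromosome Y genes were left out. Alternatives were quantile normalization, centred arrays, added values of 1 and 64, no filter, the mean of all probe sets, other probe sets singly, plain eBayes, a replicate block and leaving out arrays. The number of arrays limits the precision.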

Additional observations from a re-analysis of the deposited data

Results flagged for a closer look

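The EB effect differed between the lines, by the interaction term of the limma fit, for 3 of the 8 genes (2 arrays per group), where 22.7% of all genes were called. For GREM1 the difference, H9 minus H1, was 1.72 ± 0.14 on the log2 scale (adjusted p = 3.14e-05), with the rise larger in H9. For SMAD7 it was 0.51 ± 0.13 (adjusted p = 0.0176), with the level lower in H9 before and overlapping in EB; the call was lost in 3 of 16 alternatives. For BMP2 it was -0.42 ± 0.13 (adjusted p = 0.0390), and the call was lost in 8 of 16 alternatives. These values use the arrays labelled H9 EB, on which genes clear in H1 and dim in undifferentiated H9 stood 18.4% to 31.6% of the way from the undifferentiated H9 level to the H1 EB level; the part of this in the differences was not tested.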

How the results depend on the processing

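The rise of all 8 genes in EB kept its direction in all alternatives that use 1 value per gene, and it was called for all 8 in each of them except for SMAD6 with the mean of its probe sets (0.12 averaged over the lines, 0.12 in H1 and 0.13 in H9). Of the 8, 8 were called in the mean, H1 and H9 contrasts without any 1 array. The line comparisons were less stable: without 1 array each, 1 to 3 of the 8 were called for the difference of the EB effect, 2 to 4 in undifferentiated cells and 1 to 5 in EB, and 1 in EB with plain eBayes. Over all genes the counts without 1 array ran from 2031 to 3122 for the difference of the EB effect (3195 with all arrays) and from 717 to 2403 for the lines in EB (2152 with all arrays); leaving out an array leaves fewer degrees of freedom. With plain eBayes the counts were 2015 and 894, and with the mean of all probe sets 1646 and 998, with 2322 in place of 3686 for undifferentiated lines; the cause was not tested. With centred arrays 3476 genes rose and 6577 fell in the mean contrast, in place of 4973 and 4659.

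Directions turned for the values that follow. With the mean of all probe sets, SMAD6 gave 0.0036 for the difference of the EB effect and 0.12 between the lines in undifferentiated cells and in EB, and BMP7 gave -0.19 between undifferentiated lines. The undifferentiated difference of NOG turned to 0.054 without undifferentiated H1 replicate 1 and to 0.095 without undifferentiated H9 replicate 1, and was -0.40 without undifferentiated H9 replicate 2. The BMP4 difference of the EB effect ran from -0.074 to 1.76 and that of SMAD6 from -0.41 to 0.025, the ends being reached without one or the other undifferentiated H9 array. Single other probe sets turned the undifferentiated line difference of BMP7 to -0.13, -0.33 and -0.55 and its H1 change to -0.25. The dim SMAD6 probe set gave -0.15 in H1, 0.32 for the difference of the EB effect, 0.35 between undifferentiated lines and 0.66 in EB.

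With the replicate number as a block, 8 of the 8 genes were called in each EB contrast, 3 for the difference of the EB effect, 2 between undifferentiated lines and 4 in EB, where SMAD6 was added (adjusted p = 0.0490). Over all genes the block gave 9542 calls in the mean contrast, 8041 in H1, 8468 in H9, 3070 for the difference of the EB effect, 3547 between undifferentiated lines and 2036 in EB, of 14056 genes. Over all tested genes, samples of the same number did not deviate together (correlations of -0.046 to 0.054). Whether they shared a culture or a batch was not tested, and the labels do not say.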

Other observations

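For each of the 8 genes the closest patterns over the 8 arrays were sought among the other tested genes. The measure was the root mean square difference of log2 values centred on the gene's mean. The 8 themselves and genes read by the type of probe set that can cross-hybridise, such as MSX2, were left out. The nearest to BMP2 were EPSTI1 (0.081) and TBC1D9 (0.090), to BAMBI CAMK2D (0.064) and CPE (0.077), and to BMP7 ASXL1 (0.084) and UVSSA (0.097). NOG was nearest to SLC40A1, an iron exporter gene (0.18), and SCN3A, a sodium channel gene (0.20), while GREM1 was nearest to WLS (0.19), whose protein carries WNT ligands to the cell surface, and BOC (0.20), a hedgehog coreceptor gene. WLS rose by 2.97 in H1 and 4.12 in H9, and BOC by 3.01 and 4.21, beside 2.66 and 4.38 for GREM1, which is the pattern they were chosen for. SMAD6 was nearest to GAS2 (0.12) and ELAVL3 (0.13), and SMAD7 to ZNF300 (0.069) and DAAM1 (0.091). For BMP4 the nearest genes, FREM1 and ANGPT1, were at 0.37, farther than for any other of the 8. These are descriptions over 8 arrays in 4 groups.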
